A study of Mus musculus with 177 samples.

Results

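The expression profile that sets the newborn mouse lung apart was described from 19 lung arrays of animals that never breathed low oxygen, out of 177 arrays of lung, brain and eye in the series. The arrays were taken by their titles, which name control animals. They were set against 18 brain and 18 eye arrays of control animals. All animals were C57BL/6 mice at postnatal day 7, with no genetic change named in the labels. The control animals breathed air (an inspired oxygen fraction of 0.21) for 120 min, then 21% oxygen (9 lungs, 9 brains, 9 eyes) or 100% oxygen (10 lungs, 9 brains, 9 eyes) for 30 min, and then air for 150 min before the tissues were taken. Animals were randomized per the design text, and the arrays of a tissue were taken as separate animals. The p-values set a difference against the spread between arrays within groups. In comparisons of tissues this was an estimate shared by the lung, brain and eye arrays. The arrays measured tissue and not sorted cells, so for every result on a cell type, fewer cells of that type and less RNA per cell cannot be told apart.

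The lung at this age is forming alveoli: ridges called secondary septa grow out from the walls of simple air sacs and divide them. Flat type 1 cells carry gas exchange, cuboidal type 2 cells make surfactant, and myofibroblasts at the septal tips lay down elastin beside a growing capillary bed. In the airways, club cells secrete protective proteins and ciliated cells move mucus.

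Expression is given on the log2 scale, on which a difference of 1 is a doubling. A gene was called lung-enriched where its mean in lung exceeded both its mean in brain and its mean in eye by over 2, with both Benjamini-Hochberg adjusted p under 0.05 in limma. The threshold was set high because the tissues appear to have been normalized apart, and differences between -2 and 2 are given as values only. By this rule 319 of 19937 genes (1.6%) were lung-enriched, and 380 (1.91%) were lower in lung than in both other tissues. Lung exceeded brain alone by over 2 for 892 genes (4.47%) and eye alone, brain left aside, for 370 (1.86%), and the counts of list members below are to be read against these shares. The largest adjusted p among the 319 was 2.58e-07. Over all genes the median difference was 0.11 against brain and -0.05 against eye. The smaller of the 2 differences was over 3 for 100 of the 319 genes, over 4 for 45 and over 5 for 16, and its median was 2.53. For 271 of the 319 the difference from brain was the larger one. In 313 of them every lung lay above every brain and every eye, which held for 1602 of all genes (8.04%). The other 6 were Gata6, Ly6i, Muc5b, Scgb3a1, Tc2n and Ucp1. The 319 were chosen for large differences in these same arrays, so this separation largely follows from the choice. Just inside the threshold lay Cmklr1 (a smaller difference of 2.002), Limch1 (2.004) and Cass4 (2.004), and just outside it Arhgap45 (1.9998), Rsad2 (1.9996) and Adamts1 (1.997). Every one of the 55 control arrays correlated best, across genes, with the median profile of its labelled tissue. That profile was taken over all arrays with the label, the array itself and those after low oxygen included.

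**Figure D1:**
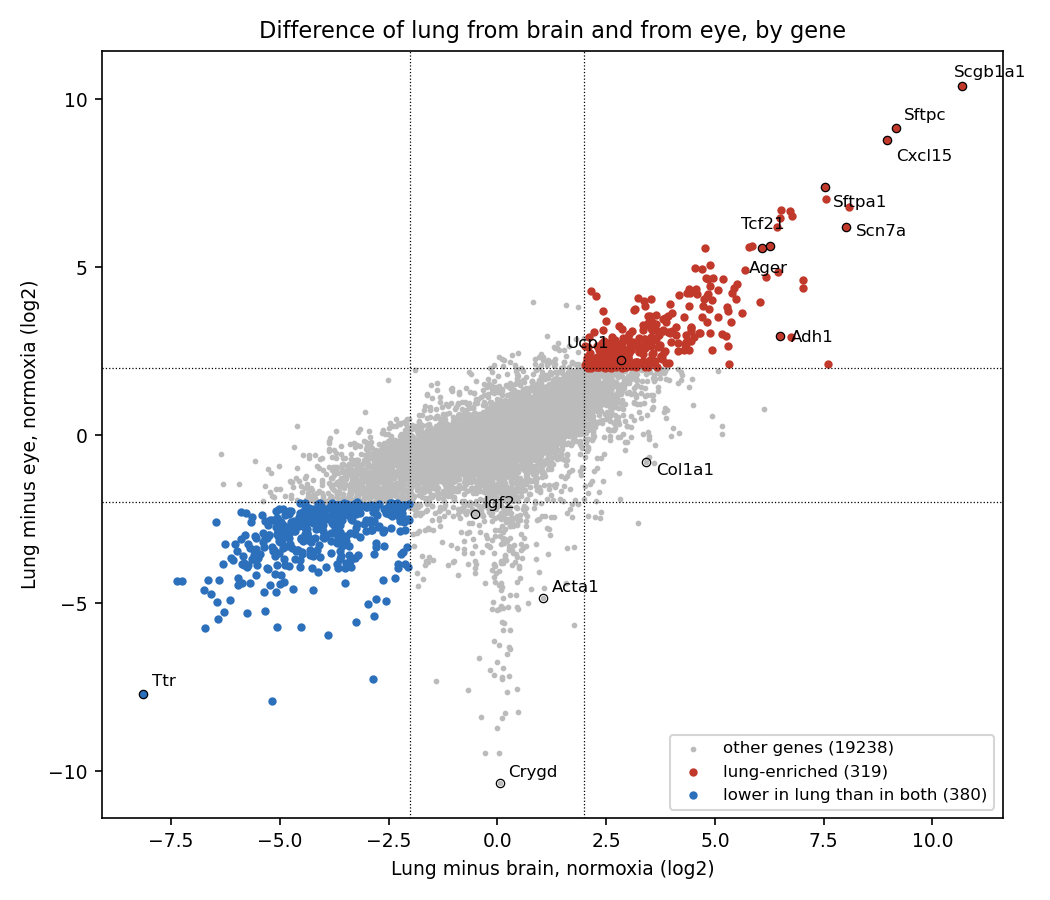
Each point is 1 of 19937 genes, placed by its mean difference of control lung from control brain (x axis, log2) and from control eye (y axis, log2), with the thresholds of 2 and -2 dotted. The 319 lung-enriched genes lie at the upper right, led by Scgb1a1, Sftpc and Cxcl15, while lens and muscle genes such as Crygd and Acta1 lie low on the eye axis and near 0 or 1 on the brain axis.

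Genes of type 2 alveolar cells stood furthest above the other tissues. Of 15 listed type 2 genes 10 were lung-enriched, with a list median of 5.07 against brain and 4.64 against eye. Sftpc, which encodes surfactant protein C, was at 14.08 to 14.29 (median 14.20) in lung, 4.51 to 5.37 (median 5.05) in brain and 4.66 to 5.87 (median 5.10) in eye. The difference was 9.16 ± 0.07 (SE) against brain and 9.14 ± 0.07 against eye. The 19 lungs lay far above every brain and eye. Sftpc ranked 1 or 2 by signal in every lung, at or close to the highest value of any gene (14.29), and its 19 values took only 6 distinct levels, so changes at this end of the scale may not show. Sftpa1, a collagen-like lectin of surfactant that binds microbes, was at 12.77 to 13.17 (median 13.07) in lung, 5.05 to 6.05 (median 5.50) in brain and 5.42 to 5.89 (median 5.60) in eye, a difference of 7.52 ± 0.07 (SE) against brain and 7.40 ± 0.07 against eye. Lamp3, a membrane protein of the lamellar bodies that store surfactant, was at 9.95 to 10.83 (median 10.31) in lung, 3.19 to 4.19 (median 3.85) in brain and 3.58 to 4.50 (median 4.04) in eye, a difference of 6.43 ± 0.08 (SE) against brain and 6.20 ± 0.08 against eye. The levels of these 3 marker genes did not overlap between lung and the other tissues.

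Of the other type 2 genes, 3 more were among the 15 largest differences. Cxcl15, a chemokine made by lung epithelium, differed by 8.97 ± 0.07 (SE) against brain and 8.77 ± 0.07 against eye, and Slc34a2, the phosphate transporter of type 2 cells, by 8.07 ± 0.06 (SE) against brain and 6.78 ± 0.06 against eye. Sftpb, the surfactant protein needed to spread lipid at the air surface, differed by 6.50 ± 0.08 (SE) against brain and 6.45 ± 0.08 against eye. Sftpd (5.19 and 4.65 against brain and eye), the protease genes Napsa (4.85 and 4.64) and Ctsh (3.84 and 2.502), whose products process surfactant proteins, and the mucin Muc1 (5.07 and 3.53) completed the list's lung-enriched members. Abca3, the lipid pump of lamellar bodies, passed the threshold against eye (2.08) but was 1.00 above brain. Lpcat1 (1.93 and 1.30), Etv5 (1.42 and 1.66), Dlk1 (1.20 and -0.61) and Fasn (-0.70 and 0.31) passed it against neither. Enzymes of general lipid synthesis were likewise near the other tissues: of 17 genes of surfactant lipid synthesis and secretion 5 were lung-enriched, among them Pla2g1b (3.47 and 3.33) and the surfactant-pool regulator Adgrf5 (3.65 and 3.31), while Pcyt1a (0.44 and 0.22) and Chka (0.05 and 0.29) of phosphatidylcholine synthesis were not.

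The 250 bases before the annotated starts of 3 type 2 genes are shown because these genes all stood far above both tissues and the factors below are themselves lung-enriched. The letters are from RefSeq (build GRCm38.p6), read 5′ to 3′ on the gene's strand. Capitals mark matches on either strand to a forkhead motif, TGTTTNC, and an NKX2 motif, CAAGTG. Sftpa1 lies at chr14:41131538-41131787 (plus strand), Sftpb at chr6:72304360-72304609 (plus strand) and Lamp3 at chr16:19706366-19706615 (minus strand). Sftpc, for which no promoter was found, is named only. Cxcl15, which stood further above both tissues, had a promoter and is not shown. The 3 windows are examples and do not stand for type 2 genes as a group.
Sftpa1: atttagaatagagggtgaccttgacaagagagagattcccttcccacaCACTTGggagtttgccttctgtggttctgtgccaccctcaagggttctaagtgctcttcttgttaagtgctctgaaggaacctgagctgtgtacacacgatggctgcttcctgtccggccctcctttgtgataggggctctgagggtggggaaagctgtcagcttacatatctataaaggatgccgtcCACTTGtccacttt
Sftpb: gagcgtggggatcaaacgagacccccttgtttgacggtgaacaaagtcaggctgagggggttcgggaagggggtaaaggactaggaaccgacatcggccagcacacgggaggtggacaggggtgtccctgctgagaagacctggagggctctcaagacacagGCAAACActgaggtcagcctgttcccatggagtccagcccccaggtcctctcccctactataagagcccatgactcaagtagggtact
Lamp3: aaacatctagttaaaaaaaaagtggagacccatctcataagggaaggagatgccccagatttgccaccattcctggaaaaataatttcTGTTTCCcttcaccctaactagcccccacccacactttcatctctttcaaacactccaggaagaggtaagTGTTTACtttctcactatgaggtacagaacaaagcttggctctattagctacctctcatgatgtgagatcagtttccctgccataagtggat
The Sftpa1 window holds 2 NKX2 matches and no forkhead match, the Sftpb window 1 forkhead match, and the Lamp3 window 2 forkhead matches. No match in these letters says nothing about whether a factor binds there. A promoter was found by symbol for 230 of the 319 lung-enriched genes and for 15613 of all tested genes. The forkhead motif stood in 48 of the 230 windows (20.9%) and in 15.6% of all, and the NKX2 motif in 32 (13.9%) and in 10.7% of all. The shares are a description of letters and were not tested.

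Genes of type 1 cells formed the next block of alveolar epithelium. Of 15 listed genes 10 were lung-enriched, with list medians of 3.17 and 3.05. Ager, the receptor for advanced glycation end products on the basal side of type 1 cells, was at 12.08 to 12.60 (median 12.29) in lung, 5.92 to 6.52 (median 6.26) in brain and 6.46 to 6.93 (median 6.79) in eye, a difference of 6.08 ± 0.06 (SE) against brain and 5.57 ± 0.06 against eye. Cldn18, a claudin of alveolar tight junctions, was at 11.80 to 12.47 (median 12.11) in lung, 5.06 to 5.88 (median 5.35) in brain and 5.11 to 5.91 (median 5.42) in eye. It differed by 6.73 ± 0.07 (SE) against brain and 6.66 ± 0.07 against eye. Gprc5a (5.69 and 4.92), a receptor of lung epithelium, Sec14l3 (4.71 and 4.95), the chloride channel family member Clic5 (4.88 and 3.05), Emp2 (3.17 and 3.74), Rtkn2 (3.56 and 3.30), the water channel Aqp5 (2.70 and 2.53), the caveolae protein Cav1 (3.82 and 2.48) and the scaffold Akap5 (2.14 and 4.30) were lung-enriched as well. Hopx (1.26 and 1.37) was not, and Pdpn, whose product is also found on lymphatic and other cells, was 2.08 relative to brain and -0.11 relative to eye.

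Genes of the sodium channel that clears liquid from the air spaces at birth and after it were also high. Among water channels this held for 2 of 11. These groups and the other gene families marked below as chosen afterwards were put together after their values had been seen. All 3 epithelial sodium channel subunits were lung-enriched: Scnn1a at 8.73 to 9.94 (median 9.08) in lung, 5.39 to 6.01 (median 5.72) in brain and 4.92 to 5.71 (median 5.25) in eye, with differences of 3.40 and 3.83, Scnn1b with 3.14 and 2.69 and Scnn1g with 4.89 and 5.06. Of 11 aquaporins only Aqp1 (5.32 and 2.10), the water channel of capillary endothelium and red cells, and Aqp5 passed the threshold against both tissues. Aqp4, the water channel of brain astrocytes, was -4.02 relative to brain.

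Airway epithelium was represented by its secretory cells. Of 12 club and secretory genes 8 were lung-enriched, with medians of 3.82 and 3.73. Scgb1a1, the main secreted protein of club cells, showed the largest difference of any gene the naming rule covers: it was at 12.93 to 13.83 (median 13.46) in lung, 2.27 to 3.54 (median 2.63) in brain and 2.74 to 3.52 (median 3.003) in eye, and the difference was 10.67 ± 0.09 (SE) against brain and 10.40 ± 0.09 against eye. Scgb3a2, another secretoglobin, differed by 6.78 ± 0.10 (SE) against brain and 6.51 ± 0.10 against eye. Cyp2f2, the cytochrome of club cells that activates naphthalene, differed by 7.02 and 4.61, and the carbonyl reductase Cbr2 by 7.03 and 4.38. Reg3g, an antibacterial lectin, was at 5.13 to 11.56 (median 9.60) in lung, 3.20 to 4.33 (median 3.67) in brain and 3.18 to 4.76 (median 3.85) in eye. Bpifb1 (4.18 and 4.18), Scgb3a1 (3.46 and 3.28) and the gel-forming mucin Muc5b (2.39 and 2.17) also passed. These last 4 varied strongly among the lungs, as described further on. Together with Scgb1c1 (2.93 and 2.23) all 4 secretoglobins measured were lung-enriched, a family count chosen afterwards.

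Ciliated, basal and neuroendocrine cell genes did not set the lung apart. None of 11 measured genes of ciliated cells was lung-enriched (medians 0.80 and 1.59). Motile cilia are also carried by the ependymal cells that line the brain's ventricles. Foxj1, the master regulator of motile cilia, was 0.30 and 1.06 above brain and eye, and Ccdc153 passed the threshold against eye only (1.36 and 2.60). Among 8 measured basal and neuroendocrine genes none was lung-enriched and 2 were lower than in both tissues. Krt5, a keratin of basal cells and of the corneal surface, was 0.77 and -4.57. Its lung mean was raised by 3 lungs described further on, at 7.41 to 9.66, and in the others it was at most 5.71. General epithelial genes were well above brain in 10 of 12 cases (median 2.57) but above eye by over 2 in only 1, Cldn3 (2.48 and 2.04).

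**Figure D2:**
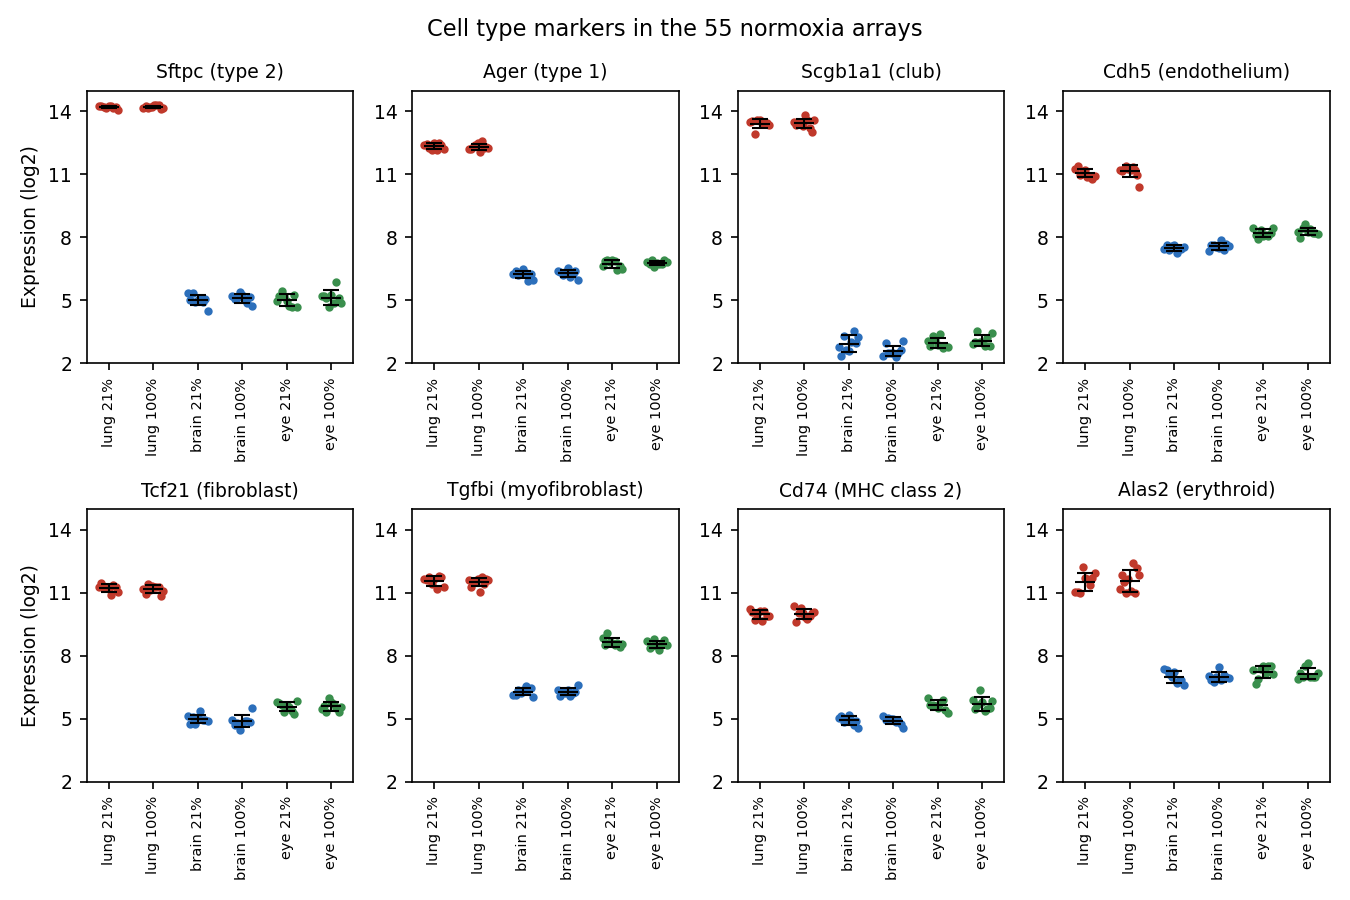
Expression (log2, y axis) of 8 cell type markers in the 55 control arrays, with 1 point per array, by tissue and reoxygenation oxygen (x axis), and the group mean with its SD in black. Sftpc, Ager and Scgb1a1 in lung lie more than 5 units above every brain and eye, while Tgfbi in eye lies between lung and brain.

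Endothelial genes were another large block. Of 18 general endothelial genes 9 were lung-enriched (medians 2.58 and 2.05), and 13 passed the threshold against brain and 10 against eye. Cdh5, the cadherin of endothelial junctions, was at 10.40 to 11.42 (median 11.20) in lung, 7.23 to 7.89 (median 7.55) in brain and 7.91 to 8.61 (median 8.21) in eye, a difference of 3.57 ± 0.07 (SE) against brain and 2.87 ± 0.07 against eye. Calcrl, the receptor subunit for adrenomedullin, was at 11.64 to 12.34 (median 12.03) in lung, 6.57 to 8.03 (median 7.16) in brain and 7.52 to 8.57 (median 7.81) in eye and differed by 4.85 ± 0.08 (SE) against brain and 4.19 ± 0.08 against eye. Pecam1 (3.50 and 2.69), Tie1 (3.01 and 2.45), Tek (2.93 and 2.07), Esam (2.36 and 2.28), Egfl7 (2.61 and 2.26), Sox17 (2.34 and 2.18) and Clec14a (3.19 and 2.02) were the others. Kdr, the main receptor for vascular endothelial growth factor, was 2.54 and 0.58 above brain and eye, and Flt1 1.25 and 1.23. Cldn5, the claudin of the blood-brain barrier as well as of lung vessels, was 1.54 and 2.52. Eng, a co-receptor for TGF-beta signals, just missed the threshold, at 2.45 against brain and 1.997 against eye.

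The lists for kinds of vessel gave smaller counts. Ptprb (2.95 and 2.83) and Cd93 (3.002 and 2.33) were lung-enriched among 10 genes of general capillary cells, and Fibin (3.35 and 2.41) and Cyp4b1 (3.93 and 3.05) among 11 measured genes of aerocytes, the large flat capillary cells that face the air. Car4, the carbonic anhydrase of aerocytes, stood 3.82 above eye and 1.86 above brain. Ednrb, the endothelin receptor of aerocytes that glia also carry, was -0.91 and -0.05. Of 12 genes of arteries, veins and lymphatics, the connexins of arteries Gja5 (3.60 and 2.90) and Gja4 (2.24 and 2.19) and the hyaluronan receptor Lyve1 (3.59 and 2.46) passed. Prox1, the lymphatic master regulator that the lens and retina also use, was -1.27 and -3.18.

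Genes that set vessel tone, a group chosen afterwards, held 7 lung-enriched members of 14 measured. Ace, the enzyme of lung capillaries that makes angiotensin II, was at 9.76 to 10.57 (median 10.26) in lung, 6.53 to 6.92 (median 6.71) in brain and 6.38 to 7.04 (median 6.72) in eye and differed by 3.51 ± 0.06 (SE) against brain and 3.53 ± 0.06 against eye. Pde5a, which breaks down cyclic GMP and is the target of sildenafil, differed by 4.45 and 3.10. Edn1 (2.62 and 2.26), which encodes endothelin 1, Npr1 (2.73 and 2.10), Glp1r (3.13 and 3.73) and the hypoxia-inducible factor Epas1 (3.04 and 3.01) also passed. Nos3, the endothelial nitric oxide synthase, was 0.58 and 0.58 above brain and eye.

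Mesenchyme contributed fibroblast genes more than smooth muscle or matrix genes. Of 16 alveolar fibroblast genes 10 were lung-enriched (medians 3.15 and 2.59). Scn7a, a sodium channel family member, was at 11.67 to 13.10 (median 12.76) in lung, 4.16 to 5.28 (median 4.64) in brain and 5.81 to 7.06 (median 6.59) in eye, a difference of 8.01 ± 0.11 (SE) against brain and 6.19 ± 0.11 against eye. Tcf21, the transcription factor of lung lipofibroblasts and other visceral fibroblasts, was at 10.85 to 11.46 (median 11.26) in lung, 4.46 to 5.53 (median 4.90) in brain and 5.22 to 5.98 (median 5.58) in eye, a difference of 6.27 ± 0.07 (SE) against brain and 5.63 ± 0.07 against eye. Its 19 lung values lay above 10.8 and its brain and eye values below 6.0. Vegfd (4.40 and 3.84), a growth factor for lymphatic vessels, Mfap4 (5.16 and 3.01), Adh1 (6.50 and 2.96), Inmt (4.01 and 3.08), Npnt (3.43 and 2.84), Meox2 (5.29 and 2.66), Wnt2 (2.86 and 2.52) and Limch1 (2.004 and 2.09) were also lung-enriched. Fgf10, the growth factor that drives branching, was 1.48 and 1.93, and Plin2, the lipid droplet protein, 2.08 and 0.999.

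Among 12 measured genes of the alveolar myofibroblast 4 passed against both tissues and 8 against brain (medians 3.25 and 1.70). Tgfbi, a matrix protein of these cells, was at 11.06 to 11.78 (median 11.60) in lung, 6.05 to 6.60 (median 6.30) in brain and 8.27 to 9.06 (median 8.55) in eye. Eye lay between lung and brain, and the difference was 5.25 ± 0.06 (SE) against brain and 2.95 ± 0.06 against eye. P2ry14 (5.29 and 3.81), the hedgehog-binding protein Hhip (3.54 and 3.18) and Egfem1 (3.24 and 4.09) were the others. Pdgfra, the growth factor receptor that marks the precursors of these cells and also oligodendrocyte precursors in brain, was 0.43 and 0.93. Of 10 smooth muscle genes Tagln (4.28 and 2.53) and Hhip passed, whereas Acta2, smooth muscle actin, was 4.40 and 1.43 and Myh11 3.68 and 1.32. Higd1b (2.12 and 2.23) and Trpc6 (2.72 and 2.48) were lung-enriched among 11 pericyte genes, and Msln (3.02 and 2.45) among 8 measured mesothelial genes.

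Elastic fibre genes separated lung from brain and much less from eye. Of 15 measured, 12 were over 2 above brain (median 2.999) and 2 above eye (median 0.96). Eln, elastin itself, was 4.48 and 1.66 above brain and eye, the crosslinking enzymes Lox 3.48 and -0.12 and Loxl1 3.38 and 0.96, and the assembly protein Fbln5 3.95 and 1.65. Ltbp2, a latent TGF-beta binding protein of microfibrils, was at 9.32 to 10.53 (median 10.12) in lung, 5.16 to 5.89 (median 5.55) in brain and 6.42 to 7.12 (median 6.81) in eye, and with Mfap4 was the list's lung-enriched pair. Other matrix genes showed the same split, with 15 of 22 over brain and 4 over eye. The fibrillar collagens Col1a1 (3.42 and -0.81), Col1a2 (3.43 and -0.71) and Col3a1 (4.17 and 0.05) stood above brain but not above eye. Dcn (1.23 and -2.43) and Lum (1.59 and -3.35), proteoglycans of the cornea and other connective tissue, were over 2 below eye. Tnc (2.11 and 2.92), Npnt and the epithelial basement membrane laminins Lama3 (3.52 and 2.91) and Lamb3 (2.38 and 2.06) were lung-enriched.

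Immune genes were lung-enriched in part of every list. The alveolar macrophage list gave 2 of 12 measured: Atp6v0d2 (3.56 and 3.36), a proton pump subunit, and Chil3 (3.51 and 3.30), a chitinase-like lectin that varied among lungs. Marco (1.78 and 1.54) and Siglecf (1.56 and 1.11), receptors of these cells, were above both tissues by less than the threshold. Macrophage genes shared with microglia, the macrophages of the brain, lay within 1 of both tissues: C1qa was 0.24 and -0.03, Cx3cr1 -0.42 and -0.03 and Csf1r 0.71 and 0.63. Ccr2 (3.39 and 2.16), the monocyte chemokine receptor, Treml4 (2.70 and 2.45) and Ace passed on the monocyte list.

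MHC class 2 genes gave the largest immune differences. Cd74, the invariant chain, was at 9.61 to 10.37 (median 10.02) in lung, 4.53 to 5.20 (median 4.95) in brain and 5.29 to 6.39 (median 5.64) in eye, a difference of 5.07 ± 0.07 (SE) against brain and 4.30 ± 0.07 against eye. H2-Aa (5.62 and 3.62), H2-Ab1 (4.46 and 3.19), H2-Eb1 (2.99 and 2.37) and the integrin Itgax (2.51 and 2.23) passed, and the dendritic markers Flt3 (-0.38 and 0.29), Xcr1 (0.45 and 0.40) and Zbtb46 (0.02 and 0.28) did not. In mouse lung, type 2 cells also carry MHC class 2 molecules. Of 8 measured T cell genes 1 was lung-enriched, Cd3g (3.34 and 3.12) of the T-cell receptor complex, with list medians of 1.25 and 0.87. Of 9 B cell genes 2 were, Ms4a1 (3.01 and 2.93) and Cd79a (2.35 and 2.53), with medians of 1.22 and 1.21. Of 10 genes of NK and innate lymphoid cells 1 was, Il7r (2.59 and 2.10), with medians of 0.50 and 0.59. Cxcr2 (2.29 and 2.64) was the 1 of 12 neutrophil genes to pass, Hdc (2.57 and 2.68) and Gata2 (2.35 and 2.13) the 2 of 10 mast cell and basophil genes. The mast cell proteases Cpa3 (2.30 and -0.67) and Mcpt4 (2.05 and -0.24) were above brain but not above eye.

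Of 7 measured genes of red cells and platelets 3 were lung-enriched (medians 1.89 and 1.42). Alas2, the heme synthesis enzyme of red cell precursors, was at 10.99 to 12.43 (median 11.66) in lung, 6.60 to 7.48 (median 6.97) in brain and 6.66 to 7.66 (median 7.17) in eye, a difference of 4.56 ± 0.11 (SE) against brain and 4.36 ± 0.11 against eye. Slc4a1 (3.11 and 2.78), the anion exchanger of red cells, and Ppbp (4.72 and 3.85), a platelet chemokine, were the others. Epb42 (1.89 and 1.42), Gp9 (1.42 and 1.26), Itga2b (0.80 and 0.79) and Pf4 (0.86 and 0.04) did not pass. Blood in the vessels at collection was not measured, and its part in these differences was not tested.

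Secreted defence proteins with no list of their own were among the 15 largest differences. Lyz1, a lysozyme, was at 12.85 to 13.30 (median 13.12) in lung, 4.63 to 6.16 (median 5.66) in brain and 5.63 to 6.78 (median 6.11) in eye and differed by 7.54 ± 0.09 (SE) against brain and 7.03 ± 0.09 against eye. Its near-identical neighbour Lyz2 (6.46 and 4.85) was lung-enriched too, and probes for such a pair may share signal. Retnla, a resistin-like protein made in airway epithelium and by macrophages, differed by 6.51 ± 0.18 (SE) against brain and 6.71 ± 0.18 against eye. Hc, complement component C5, differed by 5.79 ± 0.08 (SE) against brain and 5.61 ± 0.08 against eye.

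A list of lung enzymes for foreign compounds, gases and peptides held 10 lung-enriched genes of 19 measured (medians 2.21 and 2.36). Ces1d, a carboxylesterase, was at 9.96 to 10.68 (median 10.45) in lung, 3.70 to 4.75 (median 4.21) in brain and 4.40 to 8.83 (median 5.23) in eye, a difference of 6.16 ± 0.23 (SE) against brain and 4.71 ± 0.23 against eye. Fmo2, the flavin monooxygenase of lung, was at 9.85 to 12.12 (median 10.39) in lung, 4.29 to 4.90 (median 4.49) in brain and 5.99 to 6.997 (median 6.58) in eye, a difference of 6.03 ± 0.11 (SE) against brain and 3.97 ± 0.11 against eye. Cyp2b10 (2.69 and 2.36), Cyp2s1 (2.08 and 2.61) and Fmo1 (2.21 and 2.07) passed beside Cyp2f2, Cyp4b1, Inmt, Ace and Adh1. Cyp1a1, which the aryl hydrocarbon receptor induces, was 0.34 and -0.01, and Sod3, the extracellular superoxide dismutase, 0.73 and 0.35.

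**Figure D3:**
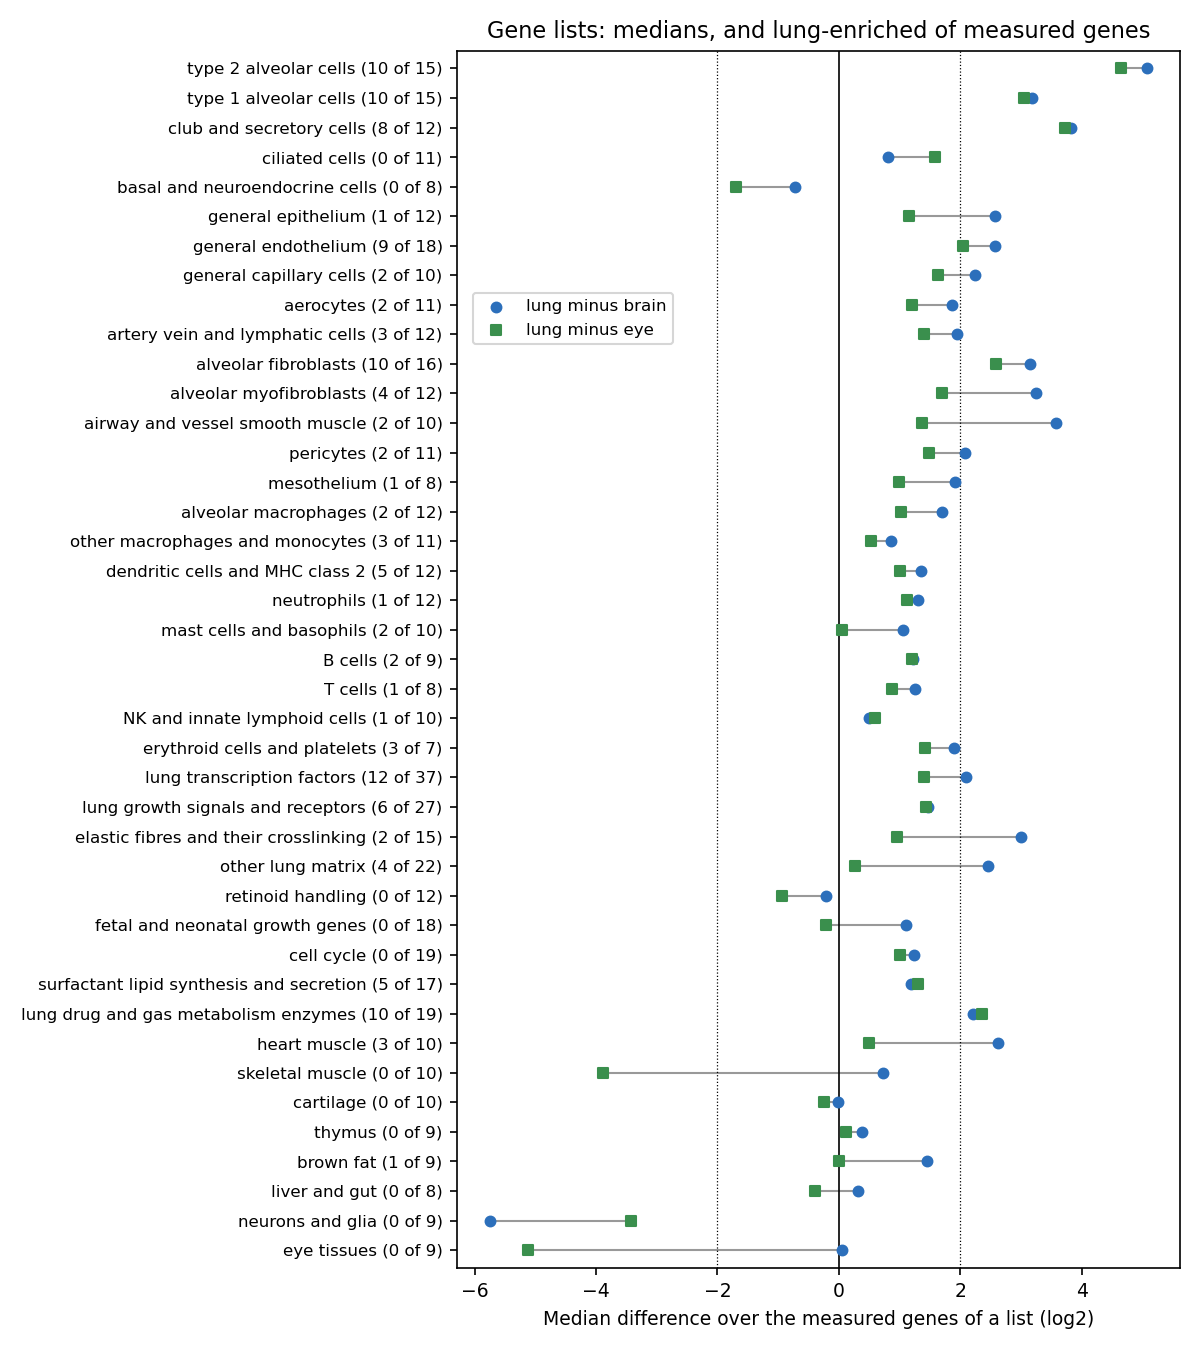
Median difference over the measured genes of each of 41 lists (x axis, log2), lung minus brain as circles and lung minus eye as squares, with the lung-enriched of measured genes after each name. Type 2, type 1, club cell, alveolar fibroblast, general endothelial and lung drug and gas metabolism lists lie above 2 on both, elastic fibre and matrix lists among others, on brain only, and skeletal muscle and eye lists lie far below 0 against eye.

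Transcription factors of lung development formed a lung-enriched set of 12 among 37 listed. They covered several layers. Mesenchymal and endothelial factors stood highest: besides Tcf21, Hoxa5 was at 9.82 to 10.61 (median 10.20) in lung, 4.29 to 7.32 (median 4.96) in brain and 3.85 to 5.05 (median 4.65) in eye and differed by 4.78 ± 0.20 (SE) against brain and 5.57 ± 0.20 against eye. Foxf1, a forkhead factor needed for lung vessels, was at 10.31 to 11.36 (median 10.79) in lung, 5.64 to 6.71 (median 6.28) in brain and 5.39 to 6.01 (median 5.80) in eye, a difference of 4.53 ± 0.08 (SE) against brain and 4.97 ± 0.08 against eye. Tbx4 (4.42 and 4.23) and Tbx5 (4.81 and 3.36), which start the lung bud from the foregut mesenchyme, Meox2, Tbx3 (3.34 and 2.10) and Hoxb5 (2.18 and 2.25) followed. Of the epithelial factors, Nkx2-1, which specifies lung and thyroid and is also used in the ventral forebrain, was at 8.17 to 8.92 (median 8.61) in lung, 5.34 to 6.09 (median 5.82) in brain and 5.01 to 5.62 (median 5.40) in eye, a difference of 2.81 ± 0.06 (SE) against brain and 3.23 ± 0.06 against eye. Foxa1 (2.28 and 2.32), Gata6 (3.87 and 2.15) and the endothelial factor Sox17 passed too. Foxa2 was 1.38 and 1.23 above brain and eye, and Cebpa 2.46 and 1.85. Sox2 (-2.49 and -1.78) and Sox9 (-1.40 and -1.47), which mark proximal and distal epithelium in the embryonic lung and neural cells elsewhere, gave negative values.

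Hox genes, grouped afterwards, passed in anterior members of 2 clusters. Hoxa2 (2.05 and 2.30) and Hoxa5 of 10 measured in cluster A, and Hoxb2 (2.70 and 2.83) and Hoxb5 of 9 in cluster B, were lung-enriched. None of 18 measured in clusters C and D was, and their differences ran from -0.34 to 0.65 against brain.

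Growth signals contributed 6 lung-enriched genes of 27 measured. Bmp5, a bone morphogenetic protein, was at 9.33 to 11.07 (median 10.24) in lung, 5.87 to 7.41 (median 6.61) in brain and 5.68 to 6.51 (median 6.12) in eye, a difference of 3.54 ± 0.10 (SE) against brain and 4.05 ± 0.10 against eye. Vegfd, Hhip, Wnt2, the receptor Fgfr4 (2.86 and 2.22) and the endothelial BMP receptor Acvrl1 (3.40 and 2.59) were the rest. Shh, the epithelial signal that Hhip binds, was 1.97 and 1.82 above brain and eye, Fgf18 1.42 and 1.54 and Pdgfa, the ligand for myofibroblast precursors, 0.51 and 1.17.

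Cell cycle, fetal growth and retinoid lists held no lung-enriched gene. All 19 measured cell cycle genes had a mean above that of both tissues, none by over 2, with medians of 1.24 against brain and 1.01 against eye. Mki67 was 1.92 and 1.52 and Top2a 1.46 and 1.27 above brain and eye. Of 18 fetal and neonatal growth genes 2 were over 2 above brain, 2 over 2 below brain and 1 over 2 below eye (medians 1.10 and -0.21): Igf2 was -0.51 and -2.36, Mest 1.16 and 0.27, Igf2bp1 1.04 and -0.08 and Lin28b -1.72 and -0.71, while the heparan sulfate proteoglycan Gpc3 was 3.44 and 1.19, Slc38a4 2.65 and 0.16, Ndn -2.76 and -1.50 and Meg3 -2.19 and -1.76. None of 12 retinoid genes passed (medians -0.22 and -0.94), with Aldh1a1 at 2.60 and 0.15 and Aldh1a2 at 0.26 and -0.37. The series holds no other age, so these values do not place the lung on a time course.

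Genes of neurons and eye were low in lung. Ttr, the thyroid hormone carrier of the choroid plexus and retinal pigment epithelium, was at 3.87 to 4.79 (median 4.42) in lung, 12.21 to 13.16 (median 12.55) in brain and 11.74 to 12.57 (median 12.19) in eye, a difference of -8.14 and -7.70. The synaptic vesicle gene Syt1 (-6.72 and -5.74), Pcp4 (-6.41 and -5.49), Snap25 (-5.75 and -5.29), Scg3 (-6.29 and -5.25) and Sv2b (-5.34 and -5.23) were the next lowest under the naming rule. Of 9 measured neuron and glia genes 7 were over 2 below both tissues, and all 9 measured eye genes were over 2 below eye.

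Genes of heart, skeletal muscle, stratified epithelium and brown fat varied widely among the lungs. Among 10 heart muscle genes, which the muscle sleeve of mouse pulmonary veins also expresses, 3 were lung-enriched. Myl7, the atrial myosin light chain, was at 8.41 to 11.41 (median 9.57) in lung, 4.84 to 5.85 (median 5.46) in brain and 5.29 to 5.97 (median 5.53) in eye, Myh6 (4.11 and 3.22) and Tnnt2 (3.76 and 2.37) being the others. Every lung lay above every brain and eye for these 3 genes. The atrial hormone gene Nppa, at a mean difference of 2.04 and 1.90, ran from 5.54 to 12.50 among the lungs. It was 12.47 in replicate 4 of the 21% group, 12.50 in replicate 3 and 12.12 in replicate 9 of the 100% group. Tnnt2 was highest in the same 3 lungs, at 11.37, 11.48 and 11.04, and at most 10.50 in the others. Replicate 4 of the 21% group also had the highest value of the cartilage gene Cnmd, 7.65.

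Replicate 6 of the 21% group stood apart by stratified epithelium and skeletal muscle. The keratins Krt4 and Krt13, of the esophagus and similar linings, were 11.65 and 11.78 there, and 10.03 and 9.99 in replicate 4 and 8.74 and 8.73 in replicate 2 of the 100% group. In the other 16 lungs Krt4 was at most 5.13 and Krt13 at most 5.52. Acta1, skeletal actin, was 11.81 in replicate 6, and in the 100% group 11.06 in replicate 4, 10.13 in replicate 9, 9.62 in replicate 1 and 9.55 in replicate 2. It was 9.28 in replicate 9 of the 21% group and 6.60 to 7.34 in the other 13 lungs. The basal cell keratin Krt5 was high in the same 3 lungs, at 9.66, 8.41 and 7.41. These genes were picked after their values were seen.

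Some airway secretory genes varied more among the 19 lungs than most lung-enriched genes did. The median SD was 0.257 over the 319 genes and 0.212 over all genes. Among surfactant genes it was 0.124 for Sftpa1, 0.211 for Lamp3, 0.275 for Sftpd and 0.280 for Sftpb. The SD of Sftpc (0.058) is limited by its place at the top of the scale. Sftpa1 ranked 8 to 25 by signal and took 15 distinct levels in the 19 lungs, so its SD may be limited too. The SD was over 0.5 in 28 lung-enriched genes and over 1 in 6. Reg3g had an SD of 1.72, Scgb3a1 of 1.35 and Bpifb1 of 1.04. In replicate 8 of the 21% group Reg3g was 5.13, Scgb3a1 5.78, Bpifb1 6.62 and Muc5b 5.75. In replicate 10 of the 100% group the same genes were 5.71, 6.78, 6.55 and 5.82. Both lungs lay below the other 17 for each of these genes. Scgb1a1, which is also near the top of the scale (12 distinct levels in 19 lungs), was 13.46 and 13.57 there, within its range of 12.93 to 13.83. As a choice made after seeing the data, 4 of the lungs that stood apart were left out. They were replicates 4, 6 and 8 of the 21% group and 10 of the 100% group. The SD of Reg3g was then 0.857 and that of Bpifb1 0.511, which largely follows from leaving out the 2 lungs lowest for both. It fell from 1.96 to 1.87 for Ucp1, 1.35 to 0.953 for Scgb3a1, 1.05 to 1.01 for Chil3 and 0.962 to 0.885 for Myh6. For Chil4 (1.04 to 1.09) and Myl7 (0.889 to 0.903) the SD rose. With these 4 lungs left out the count of lung-enriched genes was 324, of which 309 were among the 319. Replicates 2, 3, 4 and 9 of the 100% group, also high for Krt4 or Nppa, were kept. The count does not show the effect of leaving those out.

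Brown fat genes moved widely between lungs. Ucp1, the uncoupling protein of brown fat, had the largest SD of the 319 genes, 1.96, and ran from 4.90 to 9.89. Cox8b ran from 6.35 to 9.88 and Cidea from 4.80 to 8.97. In both lungs low for Reg3g, Ucp1 was also low, at 5.21 and 5.26. It was as low, at 5.22 and 5.12, in replicates 2 and 3 of the 21% group, whose Reg3g was 9.42 and 8.58. Ucp1 was the only brown fat gene of 9 to be lung-enriched, and it was not with the 21% arrays alone. The part of attached fat, esophagus or heart tissue in these values was not tested.

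Chil3 (SD 1.05) and Chil4 (SD 1.04), chitinase-like proteins, also varied. Chil3 was highest in replicate 6 of the 21% group (8.95) and replicate 4 of the 100% group (8.82), the lungs with the highest Krt4, Krt13, Krt5 and Acta1. In replicate 2 of the 100% group, the other lung with high Krt4 and Krt13, Chil3 was only 6.30. It was 8.17 in replicate 7 of the 100% group and 8.02 in replicate 1 of the 21% group, where Krt4 was 4.61 and 4.90. Chil4 was highest in replicate 5 of the 100% group (7.41) and replicate 2 of the 21% group (7.27). Of the chitinase family, chosen afterwards, 4 of 5 measured genes were lung-enriched, with Chil1 (5.40 and 4.22) furthest from both tissues.

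**Figure D4:**
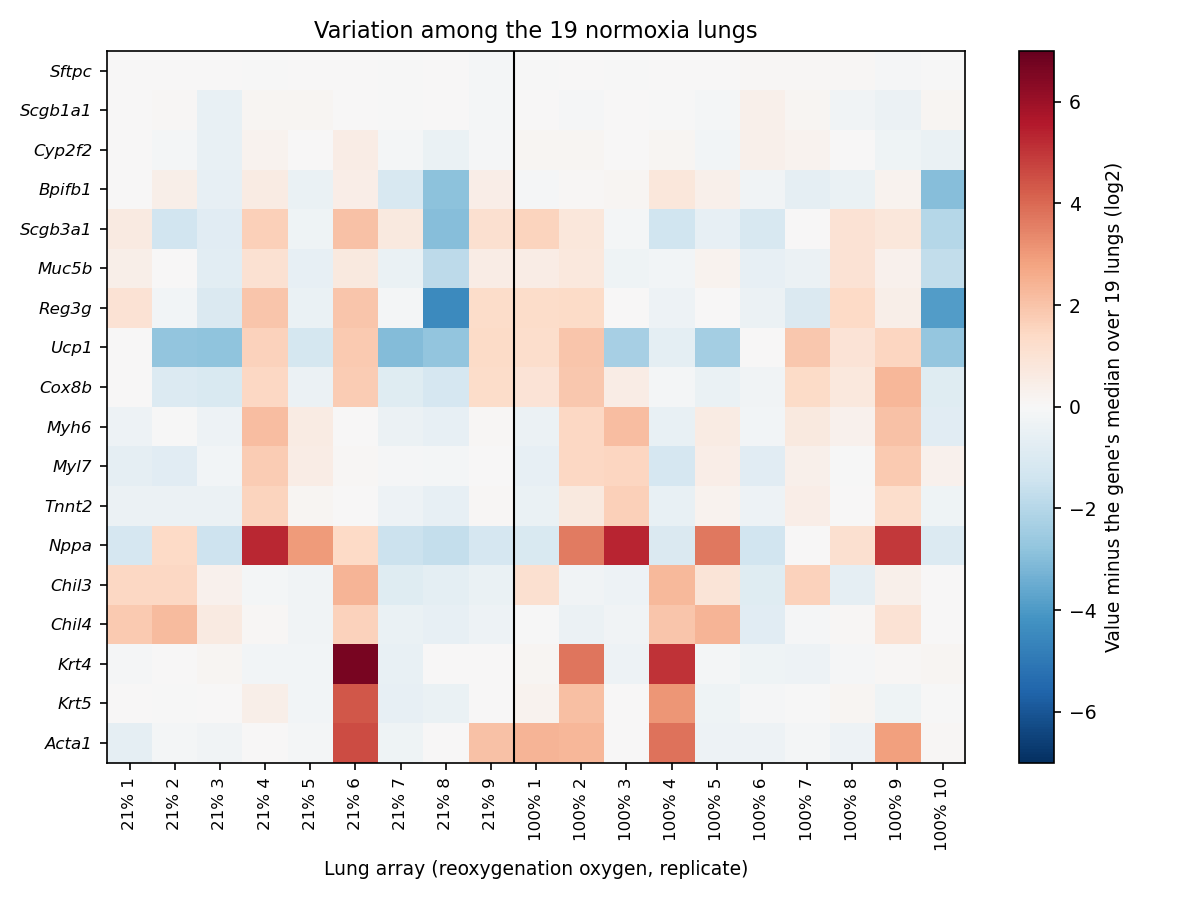
Deviation of 18 genes from their median over the 19 control lungs (colour, log2), with the lungs in columns by reoxygenation oxygen and replicate. Sftpc and Scgb1a1 are near 0 throughout, and Reg3g, Bpifb1, Scgb3a1 and Muc5b are low in 21% replicate 8 and 100% replicate 10. Nppa varies widely, and Krt4 and Krt5 are high in 3 lungs.

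The control lungs given 100% oxygen for 30 min were set against those kept at 21%. With limma no gene of 19937 (0%) had an adjusted p under 0.05 between the 100% and 21% groups, and the smallest adjusted p was 0.999. An unadjusted p under 0.05 was found for 394 genes (1.98%), 5 of them lung-enriched (1.57% of the 319). Sftpc differed by 0.015 ± 0.053 (SE), Sftpa1 by -0.077 ± 0.068 and Lamp3 by 0.082 ± 0.097. Over the 319 genes the differences ran from -0.33 (Glp1r) to 0.81 (Ucp1). By Xist and Y-linked genes 8 of 9 lungs of the 21% group and 6 of 10 of the 100% group were female, and the part of sex was not tested. Between runs of records, a possible batch read from their order, 26.8% of all genes differed among the control lungs. The first run held 5 of 9 lungs of the 21% group and 8 of 10 of the 100% group. This fit had no run term, so small effects of oxygen may not show.

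The lung-enriched genes were then read in the animals that had breathed low oxygen (an inspired oxygen fraction of 0.08 for 120 min), which had no part in choosing them. These animals, also C57BL/6 at postnatal day 7, then received 21%, 40%, 60% or 100% oxygen for 30 min and air for 150 min. There 41 lung, 40 brain and 38 eye arrays were used, and 317 of all genes (1.59%) were lung-enriched. Of the 319 genes 290 met the rule again, and both differences were above 0 for all 319. Sftpc was 9.13 above brain and 9.01 above eye in these arrays, Sftpa1 7.61 and 7.44, and Lamp3 6.48 and 6.18. The lowest of the smaller differences was 1.41, for Ucp1. Left out were 3 arrays of the 40% oxygen groups, 1 of each tissue, whose profile matched another tissue than their label; with them 272 of the genes met the rule.

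**Figure D5:**
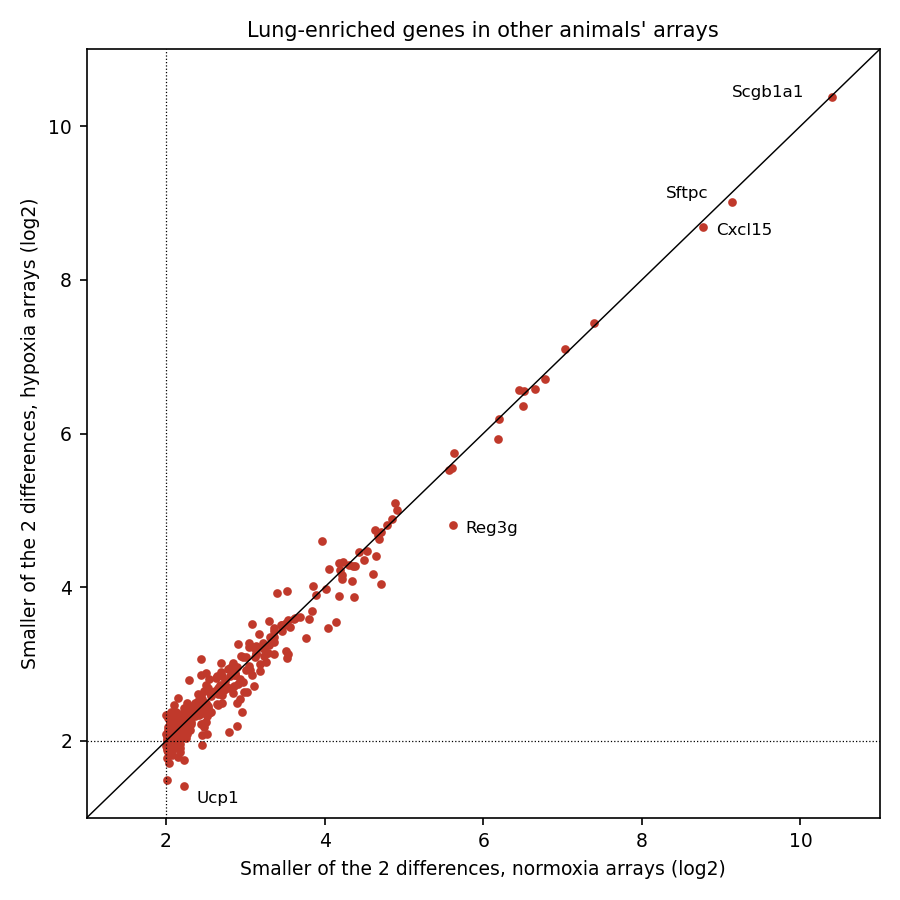
The smaller of the differences from brain and from eye for each of the 319 lung-enriched genes, in control arrays (x axis, log2) and in arrays of animals after low oxygen (y axis, log2), with the line of equality. Most genes lie near the line and 290 lie above 2 on both axes, while Reg3g lies below the line and Ucp1 falls to 1.41.

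Between the 41 low oxygen lungs, all 4 reoxygenation levels together, and the control lungs, which had 21% or 100% only, limma called 209 genes higher (1.05%) and 122 lower (0.612%) of all tested. Among the lung-enriched genes 15 were higher (4.70% of the 319) and 10 lower (3.13%). The control lungs also served to choose these genes, and without the dimmest 40% of genes the shares over all genes were 1.41% higher and 0.97% lower. Fmo2 was higher by 0.85 ± 0.13 (SE, adjusted p = 1.68e-05), with 39 of 41 low oxygen lungs above the control mean. Inmt, Scnn1a and Hsd11b1, the enzyme that regenerates active glucocorticoid, were higher by 0.74 ± 0.16, 0.49 ± 0.08 and 0.48 ± 0.09. Scnn1b (0.34 ± 0.07), Aqp1 (0.38 ± 0.06) and Edn1 (0.34 ± 0.07) were also higher. Slc27a6, a fatty acid transporter, was lower, at -0.55 ± 0.10 (adjusted p = 0.000492), with 39 of 41 low oxygen lungs below the control mean. Wnt2 (-0.51 ± 0.12), Bmp5 (-0.46 ± 0.11), Hhip (-0.32 ± 0.08) and Pde5a (-0.35 ± 0.10) were lower too. Sftpc (0.01 ± 0.03, at the top of the scale), Ager (0.04 ± 0.05) and Scgb1a1 (0.01 ± 0.05) were not called. With the 40% oxygen array labelled lung that had the profile of brain kept in, 1 lung-enriched gene was called.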

How the data were processed

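Total RNA was hybridized to Affymetrix Mouse Gene 1.0 ST arrays. Per the labels, RNA was extracted with a kit for blood after Ficoll centrifugation, although the samples were solid tissues. The authors deposited log2 values made with RMA, per the submitters' processing notes (version not stated). The array median was 6.25 for lungs, 6.07 for brains and 6.35 for eyes. Within a tissue the sorted values nearly coincided, so the tissues appear to have been normalized separately. The number of arrays limits the precision.

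Of 34760 probe sets, 21640 carried 1 gene symbol, 1321 several and 11799 none in the platform annotation. For each of 19937 genes the probe set with the highest mean over the 55 control arrays was used (954 genes had several). R 4.3.3 with limma 3.58.1 (lmFit, eBayes, two-sided, Benjamini-Hochberg over all genes) fitted 6 group means, and lung minus brain and lung minus eye were averaged over both control groups. Files were read with data.table (version 1.17.8). The fit was tested on simulated data with known differences.

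The genes described were chosen by rule: the 15 largest lung-enriched, the 6 lowest, the 8 most variable, 3 each side of the threshold, and members of 41 lists (495 of 527 different genes measured, 110 lung-enriched). Members, lists and tests were chosen with earlier results of these data known. Same-numbered arrays of 2 tissues deviated together (r over 0.1 across genes) in 15 of 18 brain and eye, 14 of 18 lung and brain and 12 of 18 lung and eye pairs. Brain and eye agreed in sex in 18 of 18 pairs, but 3 lungs differed in sex from their number's brain, so the numbers were not taken to pair the samples. Tissues of the same animal may therefore have been fitted as separate, and a replicate block was tried as an alternative. Other alternatives tried were other scalings, probe set means, filters, thresholds, subsets of arrays, weights, a record run term and leaving out each lung.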

Additional observations from a re-analysis of the deposited data

Results flagged for a closer look

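In 28 of 150 tests of a gene or a list mean within a control lung group, 1 lung stood further from the rest than Dixon's 95% critical value. Chance would give about 1 in 20 such tests if genes were picked without regard to their spread and the tests were separate. Some of the genes tested, Reg3g, Bpifb1, Myh6 and Myl7 among them, were picked for their wide spread among these same lungs. Some lists also share genes. The share of flagged tests can therefore not be set against the chance rate, and no conclusion is drawn from it.

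Single genes gave 12 of the flagged tests, all log2 values. Reg3g was 5.13 in replicate 8 of the 21% group (the others 8.58 to 11.56) and 5.71 in replicate 10 of the 100% group (8.57 or more in the others). Bpifb1 was 6.62 and 6.55 in the same lungs. In replicate 10 of the 100% group Scn7a was 11.7, Slc34a2 12.3 and Cmklr1 7.75, each the lowest. Myh6 was 10.9 and Myl7 11.4 in replicate 4 of the 21% group, each the highest. Scgb1a1 was 12.9 in replicate 3 and Sftpc 14.1 in replicate 9 of the 21% group, and Lamp3 was 10.8 in replicate 6 of the 100% group.

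Means over a list gave the other 16. Replicate 6 of the 21% group was highest for skeletal muscle (9.31, the others 5.83 to 7.24), liver and gut with esophageal keratins (6.82), basal and neuroendocrine cells (6.97), alveolar macrophages (8.41) and other macrophages (7.98). It was lowest for type 1 cells (10.3, the others 10.52 to 10.70), general endothelium (9.81) and surfactant lipid genes (9.44). Replicate 4 of the 21% group was highest for heart muscle (10.1, the others 7.73 to 8.71) and cartilage (7.04). Replicate 10 of the 100% group was lowest for club and secretory cells (8.35, the others 9.21 to 10.09), other lung matrix (9.15) and fetal and neonatal growth genes (8.39). Thymus genes were highest in replicate 5 of the 21% group (6.02) and replicate 1 of the 100% group (5.73), and drug and gas metabolism enzymes in replicate 7 of the 100% group (9.44).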

How the results depend on the processing

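The count of 319 lung-enriched and 380 lower genes moved by more than 1.5 times only with the threshold: 1342 and 1146 genes passed at a difference over 1, and 100 and 134 at over 3. Leaving out each lung in turn gave 311 to 324 and 376 to 383. Quantile normalization of all tissues together gave 359 and 363, subtracting array medians 377 and 329, a filter on the dimmest 40% of genes 243 and 360, and limma's treat against a difference of 2 221 and 298. Subtracting medians moved the median difference from eye by 0.11. The replicate block gave 320 and 381 and changed no count here by over 1.5 times, at 0 genes between 100% and 21% oxygen and 415 against 331 between low oxygen and control lungs, 30 against 25 of them lung-enriched. Within the first run of records, a possible batch read from their order, the counts were 321 and 388. Between the runs 91 of the lung-enriched genes differed (28.5%, against 26.8% of all genes), by a median of 0.22 in size. The 40% oxygen array labelled lung with the profile of brain lowered the 331 genes called between low oxygen and control lungs to 95, and the lung-enriched among them to 1. For the 15 largest and 6 lowest differences, the genes recomputed singly, 207 of 207 values under the alternatives kept their direction and side of the threshold. The nearest of them to the threshold were Hc (5.61) and Sv2b (-5.23), so hardly any other outcome was possible. The values say nothing about genes near the threshold. Of 123 counts of list members 6 moved, all by 1 or 2 genes. Brown fat fell from 1 to 0 with the 21% arrays alone, where Ucp1 did not pass.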
